A study of Mus musculus with 18 samples.

Results

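Mouse embryonic stem cells (ESCs) kept in 1 unchanged medium, 2iL, were compared between day 25 and day 38 of culture, across all genes measured. The members were the 2 libraries of day 25 and the 2 libraries of day 38 whose titles named 2iL-ESCs, which made 4 of the 18 libraries of the series. The cells were a Tet-On-OSKM/Oct4-GFP line, which is 1 line, derived from blastocysts. It carries the M2rtTA activator in Rosa26, the polycistronic OSKM cassette (for c-Myc, Klf4, Sox2 and Oct4) in Col1a1, and GFP under the Oct4 distal promoter. The strain label reads as a (C57BL/6 x 129S4/SvJae)F1 animal crossed with a (CBA/CaJ X C57BL/6J)F2 animal. All 4 libraries came from cells on mitomycin C-treated MEF feeder cells in N2B27 with the MEK inhibitor PD0325901, the GSK3 inhibitor CHIR99021 and LIF. No doxycycline was added, so that the OSKM cassette was carried but not induced, and the only stated difference between the groups was the time in culture. OSKM-ESCs, used here for 1 comparison, were the same line switched to N2B27 with doxycycline, with 2 libraries at day 25 and 2 at day 38.

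In 2iL, the MEK inhibitor blocks the ERK branch of FGF signalling, the GSK3 inhibitor stabilises beta-catenin, and LIF activates STAT3 through its receptor. Under these signals mouse ESCs hold the naive state, marked by factors such as KLF2, KLF4, ESRRB, TBX3 and TFCP2L1, with low ERK target genes and low levels of the de novo DNA methylation enzymes. The comparison asks how far gene expression differs between 2 days of culture in 1 medium. The day and the harvest of the cells cannot be told apart.

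Expression was given as FPKM, a count of fragments scaled by transcript length and library size, so that levels can be compared between genes per length. The files gave no read totals, and the sequencing depth behind each value is unknown. Between 11531 and 11842 genes had an FPKM over 1 in each of the 4 libraries. The 8 fixed pluripotency markers summed to 2994 and 3031 FPKM at day 25 and to 2593 and 2629 FPKM at day 38, against a mean of 8.2 FPKM in MEF libraries. The 9 fixed fibroblast markers summed to 4.24 to 5.61 FPKM in the 4 libraries against 1559 FPKM in MEFs. Of the 8, 7 were called lower and 1 higher at day 38 in the test described next. Of the 9 fibroblast markers, 6 were too low to be tested and none of the others was called. Summed markers of primitive endoderm were 0.664 to 1.94 FPKM, those of neural cells 0 to 0.414 FPKM with Sox1 at 0, those of trophoblast 0.826 to 1.37 FPKM and those of mesoderm 5.89 to 7.11 FPKM. Every library thus carried the markers of pluripotent cells and little of the others. In bulk RNA, fewer cells of a type and less RNA per cell cannot be told apart. Nothing in the labels says that the 2 libraries of a day came from separate cultures, so that every p below measures the spread between these libraries, which may be technical.

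The test took the 12492 genes that exceeded 1 FPKM in 1 or more of the 4 libraries, of 55469 in the files used, and 3243 of them (26%) differed between the days at an adjusted p under 0.05 (limma on log2(FPKM + 1), 2 libraries a day, Benjamini-Hochberg). Of these, 1355 (10.8%) were higher and 1888 (15.1%) were lower at day 38. Most changes were small. The median absolute log2 fold change was 0.19 over all genes tested and 0.41 over the genes called, and 87.3% of the called genes stayed within 2-fold. A change of mean FPKM over 2-fold was met by 413 of the called genes (3.31% of those tested), 85 higher (0.68%) and 328 lower (2.63%). With FPKM as deposited, 79.4% of the larger changes in this test were thus decreases, a balance that a fit of more groups, given below, did not keep. At an unadjusted p under 0.05 the counts over 2-fold were 131 higher (1.05%) and 433 lower (3.47%). Of the 85, 45 were protein coding, 11 pseudogenes and 18 long noncoding RNAs, and 7 were listed at 0 in both day 25 libraries. Of the 328, 280 were protein coding and 9 were listed at 0 in both day 38 libraries.

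The balance of the changes, small and large, depended on how the libraries were scaled. Higher genes made up 41.8% of all calls with FPKM as deposited, 57.3% after median-ratio scaling, 48.2% after quantile normalization and 25.6% with FPKM rescaled to a common sum. Over 2-fold, 137 genes were higher and 175 lower after quantile normalization. The counts over 2-fold were 112 and 263 after median-ratio scaling, and 92 and 490 with FPKM rescaled to a common sum. The balance over 2-fold also depended on the groups fitted. In a single fit of all 9 groups of the series, with FPKM as deposited, it reversed, with 68 genes higher and 45 lower. The counts also depended on having both libraries of each day. With any 1 of the 4 libraries left out, 330 to 477 genes were called higher and 363 to 631 lower, and the counts over 2-fold were 48 to 74 and 129 to 170. Counts without a library are therefore given beside most lists below. Each list count is to be read beside the 10.8% higher and 15.1% lower of all genes tested. The libraries of the 2 days did not overlap for 3547 genes in the higher direction (28.4%) and for 4927 in the lower direction (39.4%). Without any change between the days, a share of 0.333 would separate over both directions together, if libraries varied independently.

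**Figure D1:**
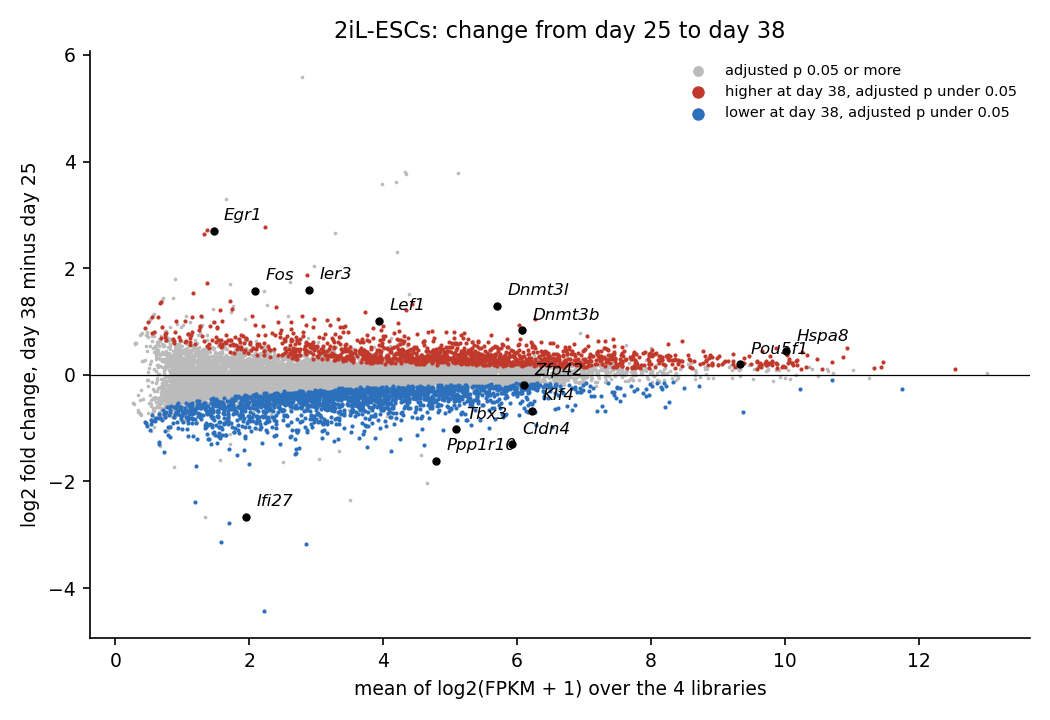
Change from day 25 to day 38 in 2iL-ESCs for the 12492 genes tested. The horizontal axis gives the mean of log2(FPKM + 1) over the 4 libraries and the vertical axis the log2 fold change. Red and blue points are the 1355 genes called higher and the 1888 called lower, grey points the rest, and black points the genes written beside them. Most called genes lie close to 0, and Egr1, Fos, Ier3 and Dnmt3l on the upper side and Ifi27, Ppp1r10 and Cldn4 on the lower side stand away from them.

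Several of the largest rises were in genes of the immediate early response, which ERK and other kinases switch on within minutes without new protein. Egr1, a zinc-finger transcription factor and a standard readout of ERK activity, was at 0.172 and 0 FPKM at day 25 and at 5.61 and 6.51 FPKM at day 38 (log2 fold change 2.703 ± 0.15 SE, adjusted p = 0.0018). It was also listed at 0 in both day 18 libraries of 2iL-ESCs. Fos, the AP-1 subunit, was at 1.38 and 1.55 FPKM at day 25 and at 6.401 and 6.332 FPKM at day 38 (1.58 ± 0.10, adjusted p = 0.0023). In both genes the replicates were close and the 2 days apart, the latter a condition of the naming rule given below. Ier3, an immediate early gene linked to ERK and to cell survival, rose from 3.39 and 3.18 to 12.4 and 11.6 FPKM (1.60 ± 0.08, adjusted p = 0.0018). Fosb, the sister of Fos, went from 0.00926 and 0.127 to 1.36 and 1.18 FPKM (1.09 ± 0.18, adjusted p = 0.012). In OSKM-ESCs, whose medium holds no MEK inhibitor, Egr1 and Fos were higher at day 25, at 59.0 and 51.7 FPKM and at 19.6 and 18.0 FPKM. Ier3 was lower there, at 2.06 and 1.36 FPKM. The part of the inhibitor in these levels was not tested.

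Of the 16 immediate early genes tested, 6 rose and 3 fell, against 10.8% higher and 15.1% lower over all genes. With any 1 library left out, 4 were higher and at most 1 was lower. The other risers were Dusp1, a phosphatase of MAP kinases (0.53), and Junb, an AP-1 subunit (0.33). Those that fell were Jund (-0.59), Btg2 (-0.35) and Ccn1 (-0.30). The median of the list was -0.03, close to the -0.04 of all genes, and the rise was seen in single members. Of 17 MEK/ERK target genes, 4 rose (23.5%), 4 fell (23.5%) and 9 did not pass the test. With any 1 library left out 3 to 4 rose and none fell. The lists share Egr1, Fos and Ier3. Beside Egr1, Fos and Ier3, the riser was Etv4, an ETS factor (25.9 and 25.3 FPKM at day 25, 34.9 and 33.3 at day 38). Of the feedback inhibitors of the pathway, Dusp6 was at 5.01 and 5.37 FPKM against 5.15 and 6.42, Spry2 at 22.2 and 24.2 against 26.5 and 24.9, and Spry4 at 2.39 and 2.42 against 2.85 and 2.64, none past the test. Dusp4, a nuclear phosphatase of ERK, fell from 1.93 and 1.76 to 0.940 and 0.497 FPKM (-0.74 ± 0.18, adjusted p = 0.034), a call that was lost with each of the 4 libraries left out in turn.

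The sequences upstream of Fos and Ier3, from the RefSeq promoter table (GRCm38.p6), are shown because both genes were among the 12 largest rises. Each covers the 250 bases before the start site, 5′ to 3′ on the plus strand, chr12:85473640-85473889 for Fos and chr17:35821463-35821712 for Ier3. Capitals mark the TATA box TATAAA in Fos and the CCAAT box CCAAT in Ier3, searched on both strands.
Fos: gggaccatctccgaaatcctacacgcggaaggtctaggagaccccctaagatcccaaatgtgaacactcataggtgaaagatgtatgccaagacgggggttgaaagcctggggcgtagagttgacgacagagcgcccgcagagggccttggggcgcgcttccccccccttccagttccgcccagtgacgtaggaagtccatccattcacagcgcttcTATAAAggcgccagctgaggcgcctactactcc
Ier3: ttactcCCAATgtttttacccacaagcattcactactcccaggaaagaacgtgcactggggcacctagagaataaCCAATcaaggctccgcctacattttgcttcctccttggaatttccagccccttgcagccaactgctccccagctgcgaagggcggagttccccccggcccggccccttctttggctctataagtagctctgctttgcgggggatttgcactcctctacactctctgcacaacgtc
The Fos window held TATAAA at bases -33 to -28 from the start site. The Ier3 window held CCAAT at -244 to -240 and at -175 to -171. TATAAA was present in the windows of 14.3% of all 27025 genes in the table, and CCAAT in those of 37.5%. Of the 14 immediate early genes with a window, 2 held TATAAA, 6 held CCAAT and 2 held the cyclic AMP response element, TGAC followed directly by GTCA, which 1.77% of all genes held. The matches describe the letters only.

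The genes named first were the 12 called genes with the largest rise and the 12 with the largest fall. They had to change over 2-fold, reach a mean FPKM of at least 5, and show no overlap between libraries of the 2 days. These conditions were met by 21 genes that rose and 82 that fell, after genes with clone, pseudogene or small RNA names were left out. All 12 of the risers and 11 of the 12 that fell were still called when any 1 library was left out, and all 24 were called under each of the 3 other scalings. In a single fit of all 9 groups 20 kept their call and 4 lost it, Lef1, Dnmt3l, Fahd1 and Fgf17. Beside these, up to 4 members of each fixed gene list were named by size of change, and other list members given below, such as Fosb, Dusp1, Hspa8, Hspe1, Dnaja1, Dnmt1, Jak1 and the cathepsins, were chosen after their values were seen. S100a13 was the exception among the 24, at an adjusted p of 0.050 without replicate 1 of day 25.

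Dnmt3l was among the 12 largest rises. DNMT3L is the catalytically inactive partner that stimulates the de novo DNA methyltransferases. Its FPKM was 31.9 and 32.5 at day 25 and 81.45 and 80.02 at day 38 (chr10:78041947-78063622, log2 fold change 1.30 ± 0.05 SE, adjusted p = 0.0012). The de novo enzyme Dnmt3b rose beside it, from 50.3 and 48.2 to 91.5 and 86.6 FPKM (0.84 ± 0.05, adjusted p = 0.0021). In the fit of all 9 groups the call of Dnmt3l was lost and that of Dnmt3b was kept (adjusted p = 0.086 and 0.011). The other de novo enzyme, Dnmt3a, was at 19.7 and 13.3 against 18.6 and 20.1 FPKM, and its libraries overlapped between the days. Exons of Dnmt3l overlap those of Aire on the other strand, and the library kit does not mark strand, so that their reads cannot be told apart. The same holds for many other named genes, each of which overlaps an annotated gene on the other strand. Among them are Lef1, Tbx3, Enox1, Pdzd4, Pou5f1, Eps8l2, Msc, Prdm10, Lin28a, Cdkn1a, Pim1, Hk1, Tet2, Axin2, Ccnd1, Mest, Junb, Tdh and Snrpd3. The maintenance enzyme Dnmt1 moved little, from 98.7 and 98.1 to 110.4 and 108.0 FPKM (0.15 ± 0.04, adjusted p = 0.043), and its partner Uhrf1 was at 218.2 and 214.1 against 217.1 and 212.3. On the opposite side, Prdm14, a repressor of the de novo enzymes in naive cells, fell from 13.5 and 12.5 to 10.2 and 10.1 FPKM (-0.32 ± 0.07, adjusted p = 0.027), and Tet2, a 5-methylcytosine oxidase, fell from 16.0 and 16.8 to 13.3 and 12.9 (-0.31 ± 0.06, adjusted p = 0.023). The calls of Prdm14 and Tet2 were lost with each of the 4 libraries left out in turn, whereas those of Dnmt3l and Dnmt3b were kept with any of them left out. In all, 5 of 13 genes of the DNA methylation machinery rose and 4 fell, and with any 1 library left out 2 to 3 rose and none fell. The others that changed were Trim28 (0.21), Dppa3 (0.23), Uhrf2 (-0.30) and Zfp57 (-0.21).

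Germline genes that DNA methylation keeps silent in somatic cells did not move together. Of 20 tested, 3 rose and 4 fell, with a median of 0.03. Rpl39l, a testis ribosomal protein, rose from 9.53 and 9.43 to 15.7 and 17.3 FPKM (0.74 ± 0.07, adjusted p = 0.0040). Stra8, the gene for entry into meiosis, fell from 9.66 and 9.92 to 5.37 and 5.50 FPKM (-0.75 ± 0.07, adjusted p = 0.0040), and Tuba3a, a testis tubulin, fell from 18.9 and 19.8 to 10.5 and 10.1 FPKM (-0.85 ± 0.07, adjusted p = 0.0028).

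The remaining risers had varied functions. Lef1, the nuclear partner of beta-catenin and a marker of the formative state, went from 9.46 and 10.2 to 22.3 and 19.5 FPKM (1.01 ± 0.09, adjusted p = 0.0034). Trh, the precursor of thyrotropin-releasing hormone, rose from 51.6 and 54.5 to 110.8 and 109.5 FPKM (1.04 ± 0.05, adjusted p = 0.0016). Enox1, an NADH oxidase of the cell surface, rose from 3.21 and 2.43 to 12.5 and 13.3 FPKM (1.87 ± 0.12, adjusted p = 0.0023). In each of the 3, both day 38 libraries lay above both day 25 libraries, which the naming rule required. Dab1, the adaptor of reelin signalling, rose by 1.10 on the log2 scale, Pdzd4 by 1.05, Naprt, which makes NAD from nicotinic acid and shares exon sequence with Eef1d, by 1.03, and the ligand Fgf17 by 0.99. Fahd1, a mitochondrial decarboxylase, was listed at 0 in both day 25 libraries and at 5.86 and 5.37 FPKM at day 38. It was also listed at 0 in 1 of the OSKM-ESC libraries and at 3.71 or more in the other 3, so that no fold is given.

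WNT target genes moved in both directions. Of 13 tested, 4 rose (30.8%) and 3 fell (23.1%), against 10.8% and 15.1% of all genes. Lef1, Ccnd1, which encodes cyclin D1, and the mesoderm factor T rose, with Ccnd1 at 13.9 and 14.9 FPKM at day 25 and 23.1 and 23.1 at day 38 (0.65 ± 0.06, adjusted p = 0.0039). Axin2, a feedback inhibitor induced by beta-catenin, fell from 19.4 and 18.7 to 15.0 and 13.5 FPKM (-0.40 ± 0.07, adjusted p = 0.017). Sp5, a direct WNT target, fell from 8.59 and 8.20 to 6.58 and 5.67 FPKM (-0.40 ± 0.09, adjusted p = 0.030). With 1 library left out, 2 to 3 were higher and at most 1 was lower.

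**Figure D2:**
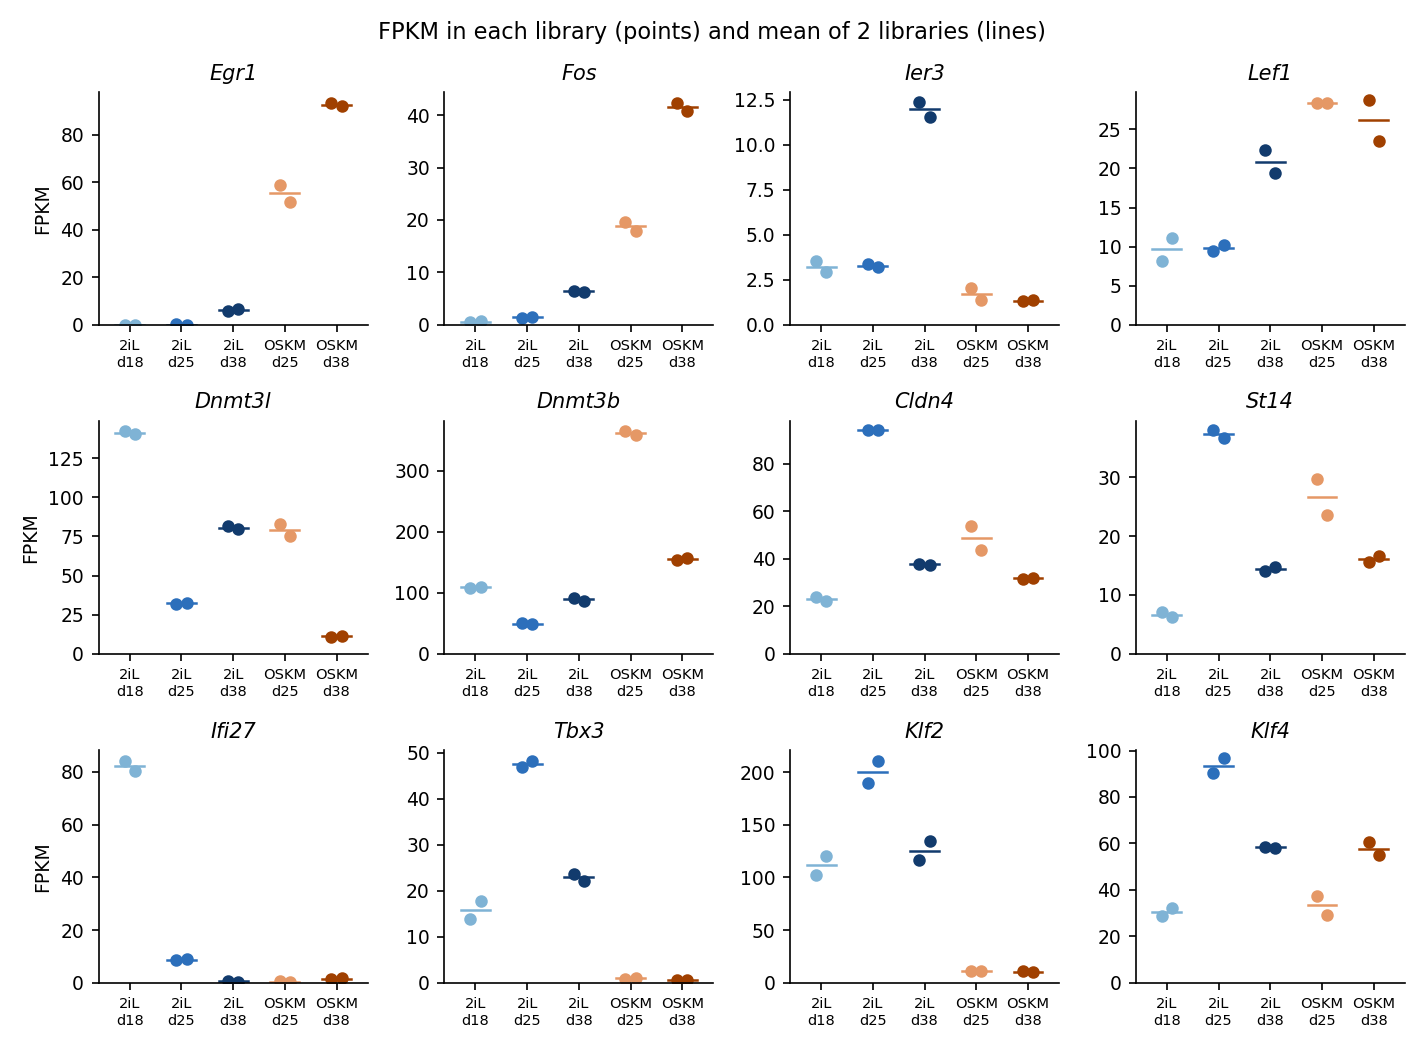
FPKM of 12 genes in each library, with 2 points per group and a line at their mean, for 2iL-ESCs at days 18, 25 and 38 (blue) and OSKM-ESCs at days 25 and 38 (orange). The vertical axes are linear and start at 0. In 2iL-ESCs, Egr1, Fos, Ier3, Lef1, Dnmt3l and Dnmt3b were higher at day 38 than at day 25, and Cldn4, St14, Ifi27, Tbx3, Klf2 and Klf4 were lower, with no overlap between the 2 days. For the genes taken from the largest rises and falls, that was a condition of naming.

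Among the genes that fell, several belong to epithelial surfaces. Cldn4, a claudin of tight junctions, was at 94.4 and 94.1 FPKM at day 25 and at 37.9 and 37.6 FPKM at day 38 (chr5:134945119-134946934, log2 fold change -1.30 ± 0.04 SE, adjusted p = 0.0012). St14, which encodes the membrane protease matriptase, went from 38.0 and 36.8 to 14.1 and 14.8 FPKM (-1.31 ± 0.06, adjusted p = 0.0016). Both replicates of each day were nearly equal in these 2 genes. Cldn7 fell from 8.11 and 9.06 to 2.90 and 4.25 FPKM (-1.08 ± 0.16, adjusted p = 0.0092), and Eps8l2, an actin regulator, from 9.40 and 10.2 to 2.75 and 3.08 FPKM (-1.46 ± 0.09, adjusted p = 0.0023). Over the adhesion and epithelial list, 6 of 21 genes fell (28.6%) and 1 rose (4.8%), against 15.1% and 10.8% of all genes. The count of falls was 2 to 3 with any 1 library left out. The keratin Krt8 (-0.51), E-cadherin Cdh1 (-0.32) and the junction protein Tjp1 (-0.25) were among the other falls. The riser was Vim, the intermediate filament vimentin, from 128.4 and 125.3 to 199.6 and 195.5 FPKM (0.64 ± 0.04, adjusted p = 0.0021).

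The other genes of large decrease had varied functions. Ppp1r10, the nuclear targeting subunit of protein phosphatase 1, fell from 47.5 and 47.6 to 15.5 and 14.4 FPKM (-1.61 ± 0.06, adjusted p = 0.0012). Ifi27, an interferon-induced mitochondrial protein, fell from 8.503 and 9.013 to 0.843 and 0.288 FPKM (-2.66 ± 0.19, adjusted p = 0.0025). It had been at 84.1 and 80.2 FPKM at day 18, so that its values fell at each later day. Ggt1, the gamma-glutamyltransferase of glutathione breakdown, fell by 1.44 on the log2 scale, Prdm10 by 1.36, the coatomer subunit Copz2 by 1.37, the bHLH factor Msc by 1.41, S100a13 by 1.48 and Ism2 by 1.67. H1f10, a linker histone, was at 16.2 and 26.1 FPKM at day 25 and listed at 0 in both day 38 libraries. It was listed at 0 in 1 of the 2 day 18 libraries and in all 4 OSKM-ESC libraries as well, and its exons overlap those of 2 other annotated genes, so that no fold is given.

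Most naive pluripotency genes were lower at day 38. Of 20 naive genes tested, 13 fell and 3 rose, against 15.1% lower and 10.8% higher over all genes, with a median log2 fold change of -0.29. The count of falls was 11 to 15 under the 3 other scalings and 3 to 7 with any 1 library left out. Tbx3, a T-box factor of the LIF and PI3K branch, fell most, from 46.8 and 48.2 to 23.6 and 22.2 FPKM (-1.02 ± 0.06, adjusted p = 0.0018). Klf4, a STAT3 target, fell from 90.3 and 96.8 to 58.6 and 57.9 FPKM (-0.67 ± 0.05, adjusted p = 0.0028), and Tfcp2l1, another STAT3 target, fell from 83.6 and 84.3 to 54.9 and 53.7 FPKM (-0.62 ± 0.04, adjusted p = 0.0025). These 3, together with the riser Dppa4, were the naive genes still called with any 1 library left out. In the fit of all 9 groups, only Tbx3 and Tfcp2l1 of the called naive genes kept their call. All the others lost it, among them Klf4 (adjusted p = 0.15), Klf2 (0.26) and Dppa4 (0.20). Their adjusted p ran from 0.053 (Fbxo15) to 0.83 (Zfp42). Klf2, which the MEK inhibitor stabilises at the protein level, went from 189.9 and 211.0 to 116.1 and 134.3 FPKM (-0.68 ± 0.09, adjusted p = 0.0067).

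Smaller falls were seen in Fgf4 (-0.56), Tcl1 (-0.49), Fbxo15 (-0.40), Tfap2c (-0.34), Prdm14 (-0.32), Pecam1 (-0.32), Esrrb (-0.26), Dppa5a (-0.26) and Zfp42 (-0.20). The calls of Zfp42 and Fbxo15 were lost after median-ratio scaling. With each of the 4 libraries left out in turn, Tcl1, Pecam1, Prdm14 and Zfp42 lost their call. Esrrb, an orphan nuclear receptor of the naive core, was at 261.4 and 267.5 FPKM at day 25 and at 223.6 and 217.3 FPKM at day 38 (-0.26 ± 0.04, adjusted p = 0.0083). Klf5, Nr0b1, Nr5a2 and Gbx2 did not pass the test, at -0.23, -0.18, 0.01 and 0.22. The 3 that rose are all members of the Dppa group. Dppa4 rose from 59.7 and 57.5 to 92.9 and 88.6 FPKM (0.62 ± 0.05, adjusted p = 0.0028), its partner Dppa2 from 34.7 and 37.5 to 50.9 and 45.5 FPKM (0.41 ± 0.07, adjusted p = 0.016), and Dppa3 from 37.5 and 35.5 to 43.8 and 42.4 FPKM (0.23 ± 0.05, adjusted p = 0.029). The call of Dppa3 was lost with each of the 4 libraries left out in turn and with FPKM rescaled to a common sum.

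The core factors changed less and in both directions. Of 9 tested, 3 rose (33.3%) and 2 fell (22.2%), against 10.8% and 15.1% of all genes. Pou5f1, which encodes OCT4, was at 607.7 and 596.0 FPKM at day 25 and at 693.6 and 692.3 FPKM at day 38 (0.20 ± 0.03, adjusted p = 0.0093). Its call was lost after quantile normalization. Sox2 fell from 208.2 and 228.5 to 158.3 and 153.2 FPKM (-0.48 ± 0.05, adjusted p = 0.0053), and Nanog from 252.3 and 279.2 to 217.9 and 198.9 FPKM (-0.35 ± 0.07, adjusted p = 0.019). The calls of Pou5f1 and Nanog were lost with 3 of the 4 libraries left out in turn, that of Sox2 with none. In the fit of all 9 groups Sox2 (adjusted p = 0.24), Pou5f1 (0.26), Nanog (0.21) and Tdgf1 (0.38) lost their call and Lin28a kept it. Lin28a, the repressor of let-7 processing, rose from 37.7 and 36.7 to 57.4 and 58.1 FPKM (0.62 ± 0.05, adjusted p = 0.0028). Tdgf1 rose from 435.7 and 429.3 to 496.7 and 485.8 FPKM (0.18 ± 0.03, adjusted p = 0.015). Its call was lost with each of the 4 libraries left out in turn, and its sign reversed after quantile normalization (-0.012). Sall4, Utf1, Trim71 and Zfp281 did not pass the test, with changes between -0.04 and 0.08. Reads of the carried cassette, if any, could not be told apart from those of Pou5f1, Sox2, Klf4 and Myc.

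Markers of the next state, formative or primed pluripotency, split. Of 11 tested, 3 rose (Lef1, Dnmt3b and Etv4) and 2 fell (Nodal and Sox4), with a median of 0.32. The call of Sox4 was lost with each of the 4 libraries left out in turn. Lef1, Dnmt3b and Etv4 are also counted in the WNT, DNA methylation and MEK/ERK lists. Nodal, the TGF-beta ligand of the epiblast, fell from 29.7 and 33.9 to 20.3 and 20.5 FPKM (-0.61 ± 0.08, adjusted p = 0.0065). Fgf5, Otx2, Pou3f1, Foxd3 and Cer1 were at an FPKM of 1 or less in all 4 libraries and were not tested. Genes of differentiated lineages were few among those tested. T was at 1.18 and 1.69 FPKM at day 25 and at 3.38 and 2.79 FPKM at day 38 (0.75 ± 0.16, adjusted p = 0.023), a call lost with each of the 4 libraries left out in turn. In the trophoblast list 3 of 8 fell and none rose, Gata2 from 1.81 and 1.63 to 0.268 and 0.456 FPKM, Krt7 from 1.199 and 0.7954 to 0.0859 and 0 FPKM, and Krt8, and at most 1 fell with any 1 library left out. Lama1 fell in the endoderm list (1 of 4) and Gsc in the mesoderm list (1 of 3, where T rose), and both calls were lost with each of the 4 libraries left out in turn. Tubb3, a neuronal tubulin that ESCs also express, rose in the neural list (1 of 3). Of the fibroblast list, 2 of 8 fell, Fn1 and Ccn2, the latter a call lost with each library left out, and of the collagens 2 of 7 fell, Col9a2 and Col18a1.

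Of 16 genes of the LIF pathway and its targets, 8 fell, 1 rose and 7 did not pass the test, with a median of -0.30, and 5 to 6 fell with any 1 library left out. Pim1, a kinase induced by STAT3, went from 71.7 and 73.9 to 42.3 and 44.3 FPKM (-0.74 ± 0.05, adjusted p = 0.0025). The kinases of the receptor, Jak1 (-0.58) and Jak2 (-0.52), and the receptor subunit Il6st (-0.32) fell as well. The ligand-binding subunit Lifr was at 5.81 and 5.93 against 7.26 and 5.83 FPKM, and Socs3, the feedback inhibitor of the pathway, was at 49.3 and 48.7 against 47.7 and 48.7, neither past the test. Klf4 and Tfcp2l1 are counted both here and among the naive genes.

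Trp53, which encodes p53, rose from 136.1 and 135.0 to 195.2 and 187.4 FPKM (0.49 ± 0.04, adjusted p = 0.0030). Of the 23 genes of the list, Trp53 included, 11 fell, 2 rose and 10 did not pass the test, with a median of -0.23, and 3 to 8 fell with any 1 library left out. Cdkn1a, which encodes the cell-cycle inhibitor p21, fell from 138.4 and 145.7 to 88.3 and 90.3 FPKM (-0.66 ± 0.04, adjusted p = 0.0025). Perp, a desmosomal protein, fell from 3.29 and 3.36 to 1.32 and 1.41 FPKM (-0.87 ± 0.11, adjusted p = 0.0070), and the cell death gene Pmaip1 from 12.2 and 12.1 to 6.18 and 6.76 FPKM (-0.82 ± 0.08, adjusted p = 0.0037). Bax, the pore-forming death gene, rose from 121.0 and 118.3 to 149.5 and 152.1 FPKM (0.33 ± 0.04, adjusted p = 0.0056). Mdm2, the ligase that targets p53 for degradation, did not pass the test (-0.23). Among cyclins and their inhibitors, 4 of 22 fell (18.2%) and 3 rose (13.6%), shares near the 15.1% and 10.8% of all genes, and with any 1 library left out 1 to 2 fell and 1 to 2 rose. E2f1 was among the falls, from 24.7 and 28.6 to 16.8 and 17.5 FPKM (-0.61 ± 0.08, adjusted p = 0.0080).

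Of 28 lysosome and autophagy genes, 12 fell, none rose and 16 did not pass the test, with a median of -0.20. The falls numbered 8 to 16 under the 3 other scalings and 4 to 6 with any 1 library left out, and none rose under any of these. Psap, the precursor of the saposins that help break down sphingolipids, went from 121.8 and 118.0 to 79.8 and 75.8 FPKM (-0.62 ± 0.05, adjusted p = 0.0028), and Gabarapl1, an autophagosome protein, from 18.98 and 15.72 to 8.48 and 8.66 FPKM (-0.93 ± 0.10, adjusted p = 0.0048). The cathepsins Ctsb, Ctsz, Ctsl and Ctsd fell by 0.34 to 0.45 on the log2 scale. Of 15 antigen presentation and interferon genes, 6 fell, 1 rose and 8 did not pass the test, and 3 fell with any 1 library left out. B2m, the light chain of MHC class I, was at 13.7 and 14.7 FPKM at day 25 and at 7.18 and 4.29 FPKM at day 38 (-1.21 ± 0.20, adjusted p = 0.013), and its call was lost without either day 25 library. Tapbp, the loading factor tapasin, fell from 14.8 and 14.1 to 9.35 and 9.33 FPKM (-0.58 ± 0.07, adjusted p = 0.0053). The riser was Ddx58, the RNA sensor RIG-I, from 6.29 and 7.46 to 13.7 and 13.8 FPKM (0.91 ± 0.09, adjusted p = 0.0042).

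Most heat shock genes rose. Of 14 tested, 10 rose and none fell, with a median of 0.30, against 10.8% higher over all genes. With quantile normalization 8 rose and 1 fell, with FPKM rescaled to a common sum 8 rose and 2 fell, and 4 to 6 rose with any 1 library left out. Hspa8, the constitutive HSP70, was at 890.1 and 889.8 FPKM at day 25 and at 1198 and 1217 FPKM at day 38 (0.44 ± 0.03, adjusted p = 0.0023). Hsph1, an HSP110 exchange factor of HSP70, rose from 50.9 and 51.9 to 84.9 and 79.9 FPKM (0.67 ± 0.05, adjusted p = 0.0028), and the co-chaperone Dnaja1 from 92.3 and 95.7 to 146.6 and 134.3 FPKM (0.57 ± 0.06, adjusted p = 0.0040). The inducible Hspa1b stayed low, at 1.93 and 1.78 against 3.61 and 3.53 FPKM, and is uncertain because it is nearly identical to Hspa1a, which was listed at 0.415 to 0.505 FPKM. The mitochondrial chaperonin pair also rose, Hspe1 from 225.3 and 220.3 to 276.4 and 289.6 FPKM (0.34 ± 0.04, adjusted p = 0.0054) and Hspd1 from 369.5 and 365.8 to 445.6 and 429.9 FPKM (0.25 ± 0.03, adjusted p = 0.0080). Hsf1, the factor that drives this response, did not pass the test, at 29.2 and 29.8 against 26.5 and 26.1 FPKM.

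The upstream windows of Hspe1 and Hsph1 are shown because they hold the heat shock element, the site of HSF1. Hspe1 and Hspd1 are a divergent pair on opposite strands, with 2 annotated Hspd1 starts. The first lies 216 bases upstream of the Hspe1 start, and the Hspe1 window covers the stretch between these. The second lies 95 bases downstream of the Hspe1 start, so that the genes overlap there. The Hspe1 window is chr1:55087898-55088147 on the plus strand, and that of Hsph1 is chr5:149636337-149636586 on the minus strand, both RefSeq GRCm38.p6. Capitals mark the 8-base elements, GAA and TTC in either order with 2 free bases (NN) between them.
Hspe1: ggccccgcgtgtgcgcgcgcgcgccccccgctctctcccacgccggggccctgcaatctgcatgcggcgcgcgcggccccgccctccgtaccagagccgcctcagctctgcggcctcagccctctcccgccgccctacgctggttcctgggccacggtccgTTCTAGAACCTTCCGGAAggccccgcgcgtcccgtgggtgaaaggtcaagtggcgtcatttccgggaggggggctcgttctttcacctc
Hsph1: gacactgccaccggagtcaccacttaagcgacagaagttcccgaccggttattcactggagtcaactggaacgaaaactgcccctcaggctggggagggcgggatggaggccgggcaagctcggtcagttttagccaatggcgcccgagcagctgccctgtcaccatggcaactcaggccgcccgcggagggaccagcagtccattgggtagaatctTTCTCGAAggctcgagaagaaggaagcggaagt
In Hspe1 3 overlapping 8-base elements ran from -89 to -72 and together made 2 matches of the 13-base element, in which a further GAA follows after 2 free bases, read on both strands. In Hsph1 1 element lay at -33 to -26. An 8-base element was present in the windows of 7 of the 12 heat shock genes in the table, of which 5 were among the 8 called higher and 2 among the other 4. Over all genes the share was 14.5%. The 13-base element was present in 2 of the 12, Hspe1 and Hspd1, which share the site, and in 0.514% of all genes.

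Most proteasome subunits rose. Of 36 tested, 24 rose and none fell, with a median of 0.28, 19 to 26 rose under the other scalings, and 11 to 16 rose with any 1 library left out. Quantile normalization gave 1 subunit that fell. Psmb7, a catalytic subunit, rose from 136.3 and 129.2 to 193.4 and 182.9 FPKM (0.50 ± 0.05, adjusted p = 0.0040), and the ATPase Psmc4 from 109.0 and 107.3 to 151.8 and 143.5 FPKM (0.45 ± 0.04, adjusted p = 0.0040). Exons of Psmb7 overlap those of Nek6 on the other strand. Of the genes of threonine, glycine and serine metabolism, a pathway on which mouse ESCs depend, 9 of 20 rose and none fell, and 4 to 6 rose with any 1 library left out. Tdh, the threonine dehydrogenase, rose from 219.5 and 216.3 to 298.4 and 306.6 FPKM (0.47 ± 0.04, adjusted p = 0.0028), and Psat1 of serine synthesis from 188.4 and 182.4 to 247.6 and 246.9 FPKM (0.41 ± 0.04, adjusted p = 0.0034).

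Of 27 ATF4 and amino acid response genes, 9 rose (33.3%, against 10.8% of all genes) and 1 fell, and 6 to 9 rose with any 1 library left out. Chac1, which degrades glutathione, rose from 13.2 and 13.2 to 23.9 and 24.4 FPKM (0.83 ± 0.06, adjusted p = 0.0025), and the arginine transporter Slc7a3 from 47.0 and 42.8 to 72.3 and 72.4 FPKM (0.68 ± 0.06, adjusted p = 0.0034). Of 18 genes of the unfolded protein response, 2 rose (11.1%, close to the 10.8% of all genes), Herpud1 and Pdia4, and none fell. Of 24 hypoxia-responsive genes, 11 rose (45.8%) and 2 fell, and 3 to 6 rose with any 1 library left out. Bhlhe40, a transcriptional repressor, rose from 15.5 and 17.5 to 28.4 and 29.1 FPKM (0.77 ± 0.07, adjusted p = 0.0038), whereas Vegfa, Pdk1 and Ldha did not pass the test. Of 24 cholesterol synthesis genes, 9 rose and 2 fell, and 2 to 5 rose with any 1 library left out. The falls were Insig1 and Srebf2, both regulators of the pathway, and both calls were lost with each of the 4 libraries left out in turn. In fatty acid synthesis 6 of 16 genes fell and 1 rose, led by Acacb, an acetyl-CoA carboxylase, from 14.4 and 13.6 to 6.39 and 6.73 FPKM (-0.99 ± 0.07, adjusted p = 0.0027). In glycolysis 6 of 22 rose (27.3%) and 4 fell (18.2%), and with any 1 library left out at most 1 rose and 3 fell. Its largest change was Hk1, a hexokinase, which fell from 51.0 and 48.2 to 26.3 and 28.3 FPKM (-0.84 ± 0.06, adjusted p = 0.0027).

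**Figure D3:**
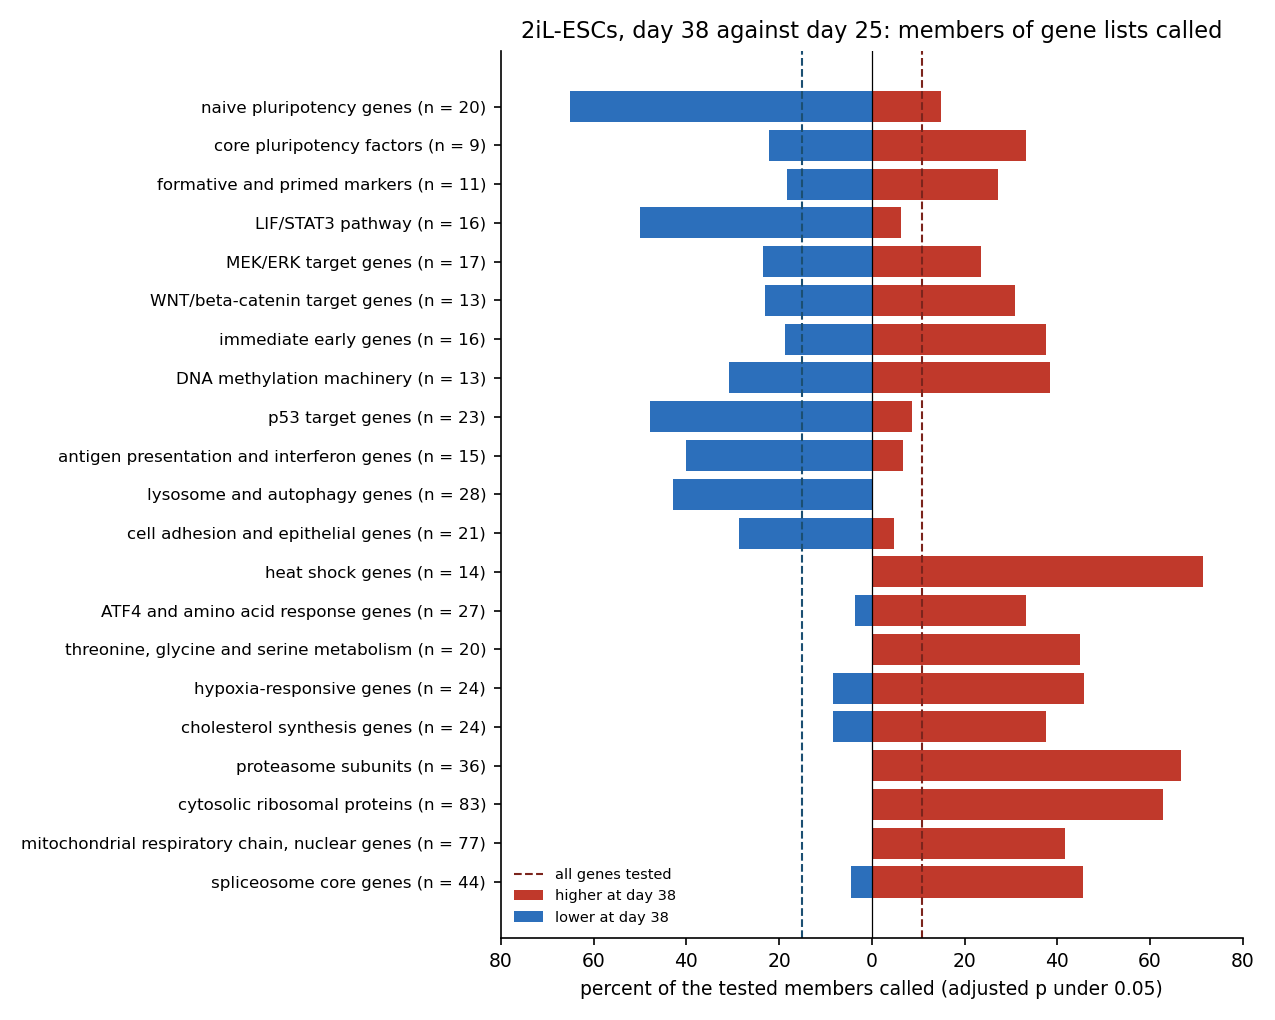
Share of the tested members of 21 gene lists called higher (red, to the right) or lower (blue, to the left) at day 38, in percent, with the number tested beside each name. Dashed lines mark the shares over all genes tested, 10.8% higher and 15.1% lower. Naive pluripotency, LIF/STAT3, p53 target, antigen presentation and lysosome genes lie mostly to the left, and heat shock, proteasome and ribosomal protein genes to the right.

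The share of genes called higher moved with gene length, which bears on lists of short genes. Of 83 cytosolic ribosomal proteins, 52 rose and none fell, but the median was 0.19, 9 rose and 5 fell after quantile normalization, and 10 to 33 rose with any 1 library left out. Of 77 nuclear genes of the respiratory chain, 32 rose and none fell (19 rose and 1 fell after quantile normalization, and 1 to 11 rose with a library left out). Of 44 spliceosome genes, 20 rose and 2 fell, and 8 to 13 rose with any 1 library left out. Rpl27 was at 707.1 and 673.7 against 901.2 and 980.1 FPKM, Uqcrh at 89.6 and 89.3 against 115.7 and 132.7, and Snrpd3 at 44.6 and 44.1 against 62.8 and 63.8. Over all protein-coding genes the share called higher fell with exon length, from 18.4% in the shortest of 4 equal groups (median 1916 bases) through 12.5% and 8.4% to 5.4% in the longest (median 9072 bases). The share called lower went from 12.7% to 18.7%, and the median log2 fold change from 0.04 to -0.10. Of the ribosomal proteins, 65 were in the shortest group, of which 41 rose, as did 25 of 59 respiratory chain genes and 12 of 17 proteasome subunits there. The part of length in these lists was not tested.

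**Figure D4:**
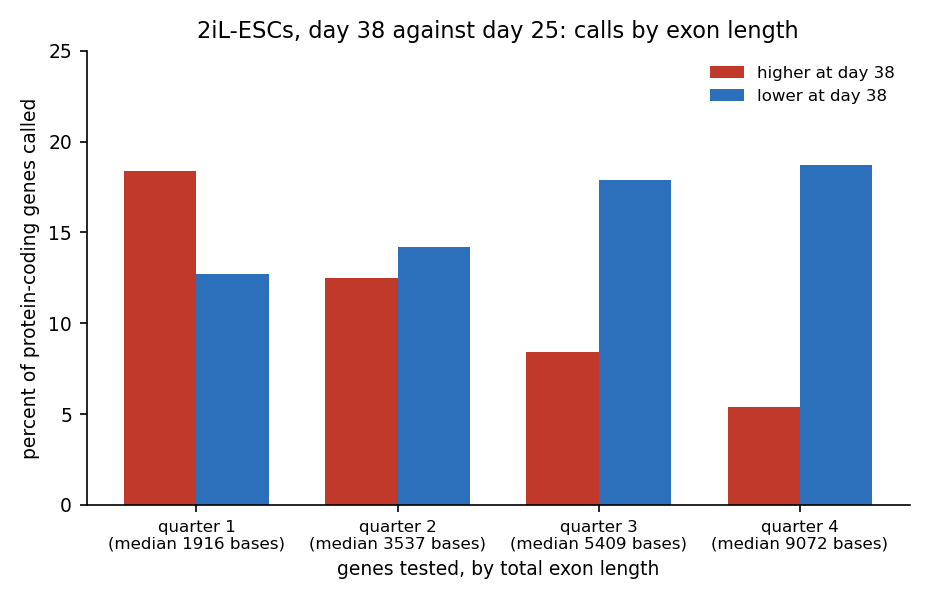
Percent of protein-coding genes called higher (red) or lower (blue) at day 38, in 4 groups of total exon length with the median length under each, bars starting at 0. The red bars fall from 18.4% to 5.4% and the blue bars rise from 12.7% to 18.7% with length.

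Of 27 imprinted genes, 6 rose (22.2%) and 4 fell (14.8%), against 10.8% and 15.1% of all genes, and 1 to 3 rose and 1 to 3 fell with any 1 library left out. Mest went from 34.0 and 34.6 to 50.9 and 49.4 FPKM (0.54 ± 0.05, adjusted p = 0.0036), and Slc38a4, an amino acid transporter, from 46.5 and 48.4 to 28.4 and 27.7 (-0.74 ± 0.05, adjusted p = 0.0025). Of 13 Polycomb repressive complex 2 genes, 2 rose (15.4%) and 3 fell (23.1%). Phf19 (-0.60), Epop (-0.33) and Aebp2 (-0.28) were lower and Ezh2 and Elob (both 0.20) higher. With any 1 library left out none rose and at most 1 fell. In the two-cell-stage list 1 of 9 fell, Zscan4c, and in the oocyte complex list 3 of 6 fell, Ooep most (21.3 and 20.2 against 13.9 and 14.1 FPKM). The Zscan4 genes are near-identical copies that share reads. Of 10 mitochondrially encoded mRNAs tested, mt-Cytb rose and the others did not pass the test. Of 11 X and Y chromosome genes, Eif2s3x rose and Rlim fell, and of 3 Hox genes tested Hoxc13 fell. The calls of Eif2s3x, Rlim, Hoxc13 and Zscan4c were lost with each of the 4 libraries left out in turn. Hist1h2an was the only replication-dependent histone gene tested and did not pass.

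The change of 2iL-ESCs between the days was compared with that of OSKM-ESCs, which shares no library with it. The difference between the 2 changes (2iL-ESCs minus OSKM-ESCs, limma interaction over 8 libraries) was called for 3863 of 13738 genes (28.1%), 1232 more positive (8.97%) and 2631 more negative (19.2%) in 2iL-ESCs. The median difference over all genes was -0.13 with FPKM as deposited and -0.01 after median-ratio scaling, and the share of positive calls went from 31.9% to 47.4% with that scaling, so that small differences carry no direction. OSKM-ESCs changed in their own right, with 1716 genes higher (13.4%) and 933 lower (7.26%) of 12849 at day 38.

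Several of the leading genes changed differently in OSKM-ESCs. Dnmt3l fell there from 82.9 and 75.4 to 11.01 and 11.54 FPKM (difference 4.01, adjusted p = 7.7e-06), and Dnmt3b from 365.6 and 358.1 to 153.7 and 157.6 FPKM (difference 2.05, adjusted p = 4.9e-05). Dppa4 and Dppa2 fell there as well, with differences of 1.96 (adjusted p = 8.8e-05) and 2.50 (adjusted p = 0.00034). In these 4 genes the 2 media went in opposite directions. Ier3 was at 2.06 and 1.36 against 1.30 and 1.40 FPKM in OSKM-ESCs (difference 1.79, adjusted p = 0.0012), and Lef1 at 28.3 and 28.3 against 28.8 and 23.6 (difference 1.13, adjusted p = 0.0029). Nanog rose in OSKM-ESCs from 22.4 and 28.1 to 52.6 and 55.0 FPKM (difference -1.42, adjusted p = 0.0013), and Klf4, Tfcp2l1, Esrrb and Tcl1 had differences of -1.45, -1.26, -1.27 and -1.37, each at an adjusted p of 0.0015 or less. Over the naive list, 8 of 20 differences were called negative and 5 positive, against 19.2% and 8.97% of all genes. Dppa5a and Zfp42, with positive differences of 0.73 and 0.61, were lower at day 38 in both media. OSKM-ESCs were in doxycycline, so that their Klf4, Sox2, Pou5f1 and Myc values can include the induced cassette.

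Other genes moved in the same direction in both media. Egr1 and Fos rose in both, in OSKM-ESCs from 59.0 and 51.7 to 93.2 and 91.9 FPKM and from 19.6 and 18.0 to 42.3 and 40.7 FPKM, although the rise on the log2 scale was larger in 2iL-ESCs (differences 1.97 and 0.48, adjusted p = 0.00040 and 0.022). Cldn4 fell in both, in OSKM-ESCs from 53.9 and 43.9 to 31.6 and 32.1 FPKM, and more so in 2iL-ESCs (difference -0.70, adjusted p = 0.0089). St14 and Ppp1r10 behaved likewise, with differences of -0.63 and -0.60. Fgf17 rose in both, by 0.99 and 1.14, and the difference did not pass the test (-0.15 ± 0.16 SE, adjusted p = 0.52). Trh rose in both but more in OSKM-ESCs, where it went from 30.6 and 29.5 to 195.6 and 191.1 FPKM (difference -1.61, adjusted p = 7.7e-05).

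**Figure D5:**
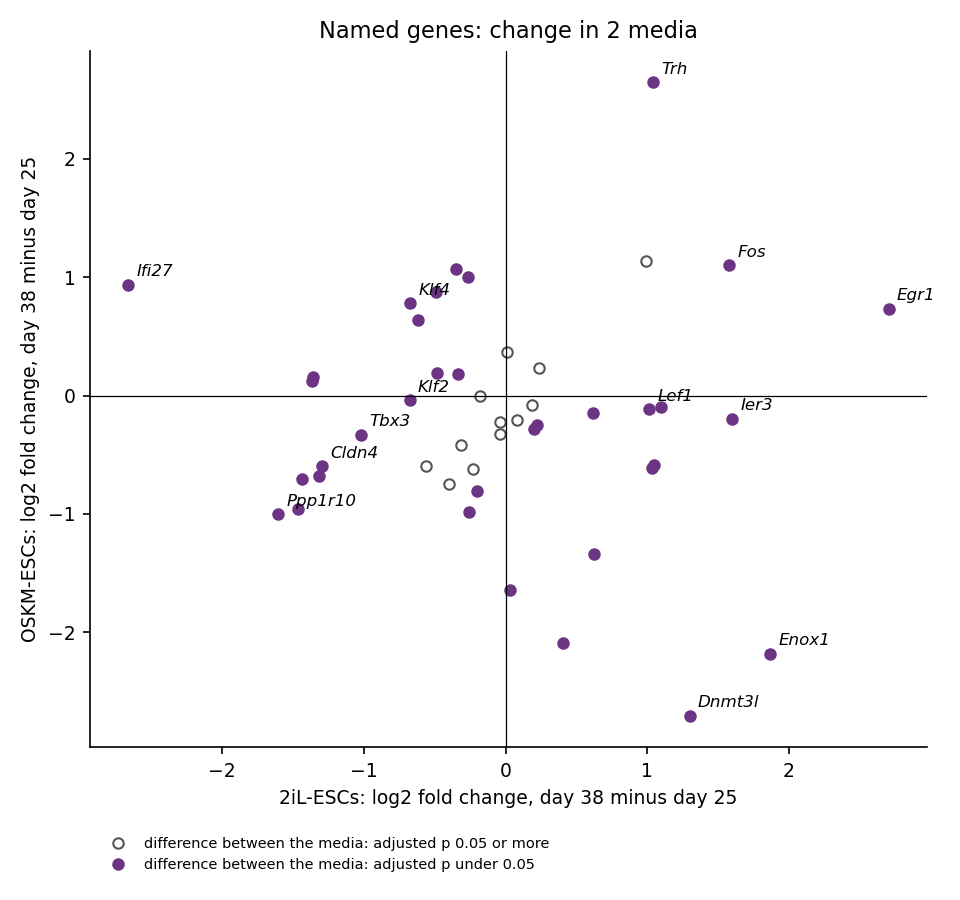
Log2 fold change from day 25 to day 38 in 2iL-ESCs (horizontal) and in OSKM-ESCs (vertical) for 47 named genes, the leading risers and falls and the core and naive pluripotency genes, without genes listed at 0 in both libraries of a group. Filled points are the 35 genes whose 2 changes differed at an adjusted p under 0.05. Dnmt3l and Enox1 lie at the lower right, rising in 2iL-ESCs and falling in OSKM-ESCs, Ifi27 at the left, and Egr1 and Fos at the upper right.

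Libraries of day 18 in the same medium give another time point for these levels. Over 12726 genes, the mean Euclidean distance of log2(FPKM + 1) profiles was 45.9 between days 25 and 38 (43.9 to 47.5 over the 4 pairs of libraries), 68.2 between days 18 and 25 and 55.1 between days 18 and 38. Replicates were 37.2, 31.2 and 30.4 apart at days 18, 25 and 38. The step from day 25 to day 38 was thus 1.49 times the mean distance of replicates, and day 38 lay nearer to day 18 than day 25 did. For single genes the day 18 values are given beside the others. Dnmt3l was at 142.3 and 140.4 FPKM at day 18, Dnmt3b at 108.3 and 109.5, and Dppa4 at 121.2 and 121.5, all above day 38. Cldn4 was at 23.7 and 22.2 FPKM at day 18, Tbx3 at 13.9 and 17.8, and Klf4 at 28.7 and 32.0, all below day 38. For these 6 genes, chosen after their values were seen, day 25 was the extreme of the 3 days. The summed FPKM of some lists did likewise. Naive genes summed to 2112 and 2117 FPKM at day 18, 2779 and 2816 at day 25 and 2256 and 2315 at day 38. Proteasome subunits summed to 5271 and 5075, 3690 and 3630, and 4439 and 4426 FPKM. Other lists did not, and hypoxia-responsive genes summed to 1145 and 1108, 1886 and 1838, and 2044 and 2021 FPKM. Egr1, Fos, Ier3 and Lef1 differed from the 6 genes. Ier3 was at 3.54 and 2.91 FPKM and Lef1 at 8.16 and 11.1 FPKM at day 18, close to their day 25 values, and day 38 was the day that stood apart. Day 25 libraries enter both steps, so that no test of one step against the other is given.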

How the data were processed

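Poly(A) RNA of 2iL-ESCs at days 25 and 38 was sequenced on an Illumina instrument from NEBNext Ultra libraries, which do not mark strand, and 2 libraries a day were used. Per the study's methods and the submitters' processing notes, the authors aligned reads to GRCm38/mm10 with STAR 2.7.1a, kept unique alignments, and deposited FPKM and TPM values and mean coverage per gene from StringTie 2.0. The annotation release is not given in the sources used here, and 98.8% of the gene identifiers had the same coordinates in GENCODE M21. Deposited FPKM were used, identifiers listed more than once (11) were summed, and 2 genes with a failed value were left out. The TPM alternative was FPKM rescaled to a common sum for every library, since 2 of the 18 libraries had no usable TPM column. The authors' coverage values served to check the files only. Depth per library is unknown, so no counting interval is given.

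Genes that exceeded 1 FPKM in 1 or more of the 4 libraries were tested on log2(FPKM + 1) with limma 3.58.1 (R 4.3.3, lmFit and eBayes with a trend) and Benjamini-Hochberg adjustment at 0.05. Fold changes on this scale understate changes of low genes. An exact two-sided permutation test of 2 against 2 libraries cannot go below p = 0.333 and was not used. The difference between media was an interaction term over 8 libraries. The test was checked on simulated data with independent noise of the size of this fit's own standard errors. It recovered 63.5%, 97% and 100% of added log2 changes of 0.5, 1 and 2. In the same runs it made 16, 11 and 10 false calls among genes left unchanged. Such noise cannot tell whether the spread between the 2 libraries of a day is technical. Named genes were the 12 that rose and the 12 that fell most, up to 4 members of each of 40 gene lists, all core and naive pluripotency genes, the 5 largest interactions in each direction, and cell type markers. The comparison, lists and members were chosen with earlier results of these data known. Alternatives were another pseudocount, filter, scaling and variance model, a replicate block, a joint fit of all groups or of 3 days, and leaving out each library.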

Additional observations from a re-analysis of the deposited data

Results flagged for a closer look

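The following genes had the largest differences between the change of 2iL-ESCs and that of OSKM-ESCs from day 25 to day 38 (2iL-ESCs minus OSKM-ESCs, log2, limma interaction over 8 libraries, adjusted p under 0.05). Arg1, the arginase of the urea cycle, differed by -4.889, with 0 and 0 against 0.072 and 0.056 FPKM in 2iL-ESCs and 0.449 and 0.533 against 45.4 and 46.6 FPKM in OSKM-ESCs. Cdx1, a caudal homeobox factor, differed by -4.375, since it stayed at 32.6 and 29.4 against 26.0 and 29.0 FPKM in 2iL-ESCs and went from 2.27 and 1.13 to 47.6 and 47.8 FPKM in OSKM-ESCs. Crabp1, a retinoic acid binding protein, differed by -3.796, with 9.954 and 8.497 against 6.12 and 6.99 FPKM in 2iL-ESCs and 11.5 and 7.67 against 109.2 and 103.0 FPKM in OSKM-ESCs. Hoxb9 differed by -3.777, and stood at 0.861 and 1.03 against 0.566 and 0.407 FPKM in 2iL-ESCs and at 0.142 and 0.241 against 11.3 and 11.7 FPKM in OSKM-ESCs. In these 4 genes most of the difference came from the rise in OSKM-ESCs.

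On the positive side, Enox1 differed by 4.051 and Dnmt3l by 4.005, both described above. Gadd45g, a stress-induced growth arrest gene, differed by 3.242, with 4.07 and 3.16 against 7.69 and 7.02 FPKM in 2iL-ESCs and 24.7 and 23.9 against 4.08 and 3.65 FPKM in OSKM-ESCs, so that it went in opposite directions.

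The other 3 rested on values listed at 0. H1f10 differed by -4.433 and was listed at 0 in all 4 OSKM-ESC libraries. Malat1, a nuclear noncoding RNA, differed by 4.757 and was listed at 0 in both OSKM-ESC libraries of day 38, against 31.9 and 34.2 FPKM in 2iL-ESCs. Mitochondrial mt-Atp6 differed by 15.88 and was at 0 and 0 against 2283 and 0 FPKM in 2iL-ESCs and at 719 and 2210 against 0 and 0 FPKM in OSKM-ESCs. Its exons overlap those of its neighbours. The fitted values of these 3 genes are no measure of a fold.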

How the results depend on the processing

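The counts of genes called depended on the number of libraries and the genes tested. With each library left out in turn, 330 to 477 genes were higher and 363 to 631 lower, 48 to 74 and 129 to 170 over 2-fold, and the interaction gave 703 to 1663 positive and 1529 to 3573 negative calls. Without a filter on low values the counts were 384 and 553, and 52 and 165 over 2-fold. A fit of all 9 groups gave 282 higher and 537 lower, 45 lower over 2-fold, and 551 and 1434 interaction calls. Over 2-fold, 68 genes were higher in that fit, so that the balance of the larger changes reversed. Without the variance trend 801 genes were higher. Quantile normalization gave 137 higher and 175 lower over 2-fold, and 1567 negative interaction calls. The cause of these shifts was not tested. The distance between the days, 1.49 times that of replicates, was 1.45 to 1.55 with a library left out, 1.31 with a pseudocount of 0.1 and 2.14 as 1 minus Pearson r.

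With the replicate number as a block, 950 genes were higher and 1334 lower. The deviations of same-numbered libraries correlated at -0.029 over 11700 genes, so that no shared effect of the replicate number was seen. Whether same-numbered libraries were grown or prepared together is not known.

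The sign reversed for 7 genes, of which Tdgf1 had been called. Sall4 was at 0.026 with median-ratio scaling and at -0.11 to 0.027 with a library left out, and Trim71 at 0.027 with median-ratio scaling. Utf1 was at -0.047 with quantile normalization and -0.039 with TPM, and Tdgf1 at -0.012 with quantile normalization. Nr5a2 was at -0.057 with TPM and -0.013 to 0.038 with a library left out. Col1a1 was at -0.033 with TPM and -0.031 to 0.058 with a library left out. Thy1 was at -0.007 with TPM and -0.111 to 0.19 with a library left out. Of the values of single genes and lists, 2629 stayed on their side of the threshold, 441 lost it, 7 gained it, 14 reversed and the others moved. Depth is unknown, so that changes of genes with a low FPKM could not be set against counting error.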
